A study of Mus musculus with 180 samples.

Results

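The type I interferon-stimulated genes described here are 34 genes, listed by symbol as well-known targets of type I interferon, out of 13820 genes in the deposited table. All 34 were found, and all 34 passed the filter on low values in each of the 15 tissues. RNA was measured by 3′ tag sequencing in 180 libraries, 1 for each of 15 tissues of each of 12 female mice aged 6 weeks, whose vessels were flushed with PBS containing EDTA. The TNFKO LPS mice, numbered 9 to 12, carried the TNF-null allele of the strain B6.129S-Tnftm1Gkl/J and received 5 mg/kg lipopolysaccharide (LPS, a bacterial cell wall component sensed by the receptor TLR4). The LPS mice, 5 to 8, were C57BL/6J and received that dose, and the PBS mice, 1 to 4, were C57BL/6J and received the vehicle PBS. Tissues were taken at 12 hours, and the number of mice was 4 in each group. TNF-deficient animals were studied only under LPS, so what the allele or its background does at rest cannot be told apart from what it does to the LPS response.

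Cells that sense microbial nucleic acid or LPS release type I interferons, which bind the receptor IFNAR on the same and neighbouring cells. The receptor kinases activate transcription factors, STAT2 and IRF9 among them, which bind interferon-stimulated response elements in target promoters. The products of these targets block viral entry, translation and replication, sense viral RNA, amplify interferon production or shut the signal down. In the intestine the epithelium can also respond to type III interferons, which use another receptor but the same factors.

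Values are a deposited signal, described under the processing of the data, and log2 changes are differences of log2(signal + 1) with the standard error (SE). A gene was called higher or lower at a limma adjusted p below 0.05, with Benjamini-Hochberg adjustment over all genes tested in a tissue. Levels are compared between samples and not between genes. In whole tissues, fewer cells of a type and less RNA per cell cannot be told apart. Total counts ran from 311128 to 2573806 per library, and in small intestine from 1845221 to 2497933 in TNFKO LPS mice, 1407858 to 1743635 in LPS mice and 1051216 to 2197197 in PBS mice. There, 1 count stood for a signal of 0.428 to 1.01. Each of 15 lists of 5 tissue markers had its highest PBS mean in its own tissue. Tnf signal was 10.8 to 107 in the 60 TNFKO LPS libraries, 3.48 to 75.2 in the 60 LPS libraries and 1.86 to 18.4 in the 60 PBS libraries. Within tissues, every TNFKO LPS mouse lay above every LPS mouse, except in liver, thymus and bone marrow, where these groups overlapped. In small intestine Tnf signal was 18.0 to 23.1 in TNFKO LPS mice and 4.76 to 8.06 in LPS mice. The removed part of Tnf is not given in the labels, so its 3′ tags check nothing about the genotype.

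The first comparison asks how LPS changed these genes in each tissue. Outside the small intestine, LPS raised them nearly everywhere: 392 of 476 gene and tissue tests over the other 14 tissues were higher in LPS than in PBS mice and 1 was lower, while 9.43% of all genes tested in these tissues were higher and 10.2% lower. The median log2 change was 1.43 over the genes of the list and −0.02 over all genes. In the small intestine the same genes went apart. There, 12 of 34 were lower in LPS mice, 5 were higher and 17 were not called, with a median of −0.25, while 9.92% of all genes tested there were higher and 13.4% lower. Ifit1, which binds viral RNA that lacks the cap methylation of host messages, was 0.388 times as high in LPS as in PBS mice in small intestine and 14.7 times as high in inguinal lymph node, on the scale of signal + 1.

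**Figure D1:**
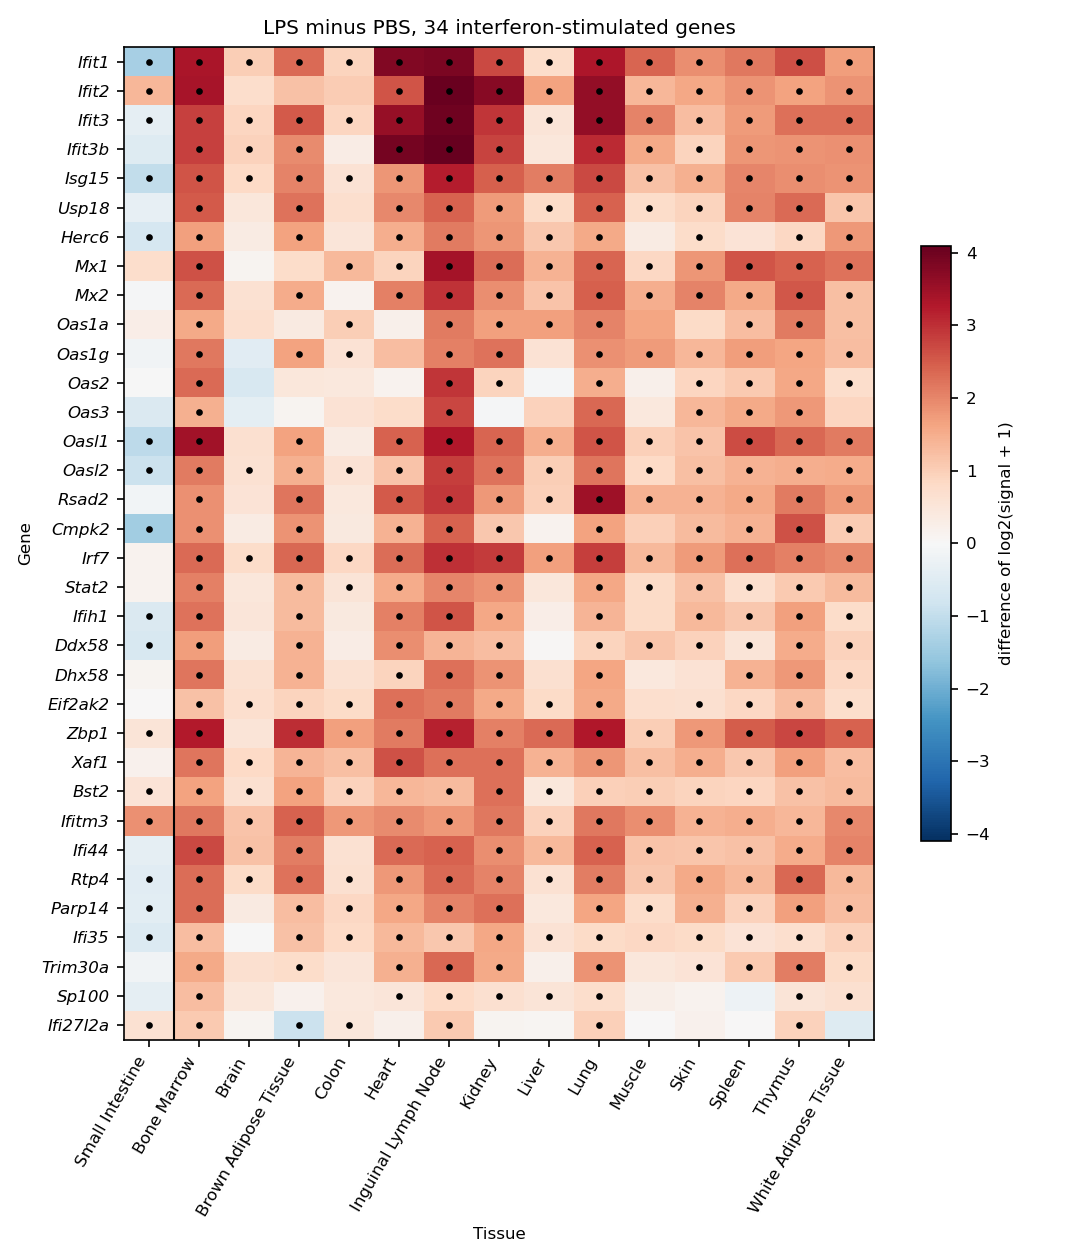
Log2 change, LPS minus PBS mice (4 against 4), of each of the 34 genes (rows) in each tissue (columns), with a dot where the limma adjusted p was below 0.05. The small intestine column, left of the line, holds 12 genes called lower and 5 called higher, while the other 14 columns hold 392 higher calls and 1 lower call.

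In inguinal lymph node, bone marrow, lung and thymus all 34 genes rose, with median log2 changes of 2.42, 2.19, 2.07 and 1.73. The shares of all genes tested that were higher there were 9.97%, 10.6%, 11.7% and 9.7%. The kidney (32 of 34 higher, median 1.90, 16.2% of all genes), white fat (32, 1.29, 7.49%), spleen (31, 1.41, 8.04%), skin (30, 1.25, 9.45%) and heart (29, 1.80, 9.83%) followed. Brown fat had 27 higher (median 1.5, 9.09% of all genes) and 1 lower, where 9.28% of all genes were lower. Muscle had 23 higher (1.00, 6.72%), liver 22 (0.77, 11.6%), colon 18 (0.62, 9.45%) and brain 12 (0.63, 2.32%). The shares of all genes that were lower in LPS mice were 12.6% in inguinal lymph node, 12.3% in bone marrow, 13.9% in lung, 8.83% in thymus, 21.9% in kidney, 6.25% in white fat and 7.75% in spleen. They were 8.46% in skin, 12.3% in heart, 5.76% in muscle, 13.5% in liver, 7.76% in colon and 2.03% in brain. The brain count was 4 without LPS mouse 7. In the 13 tissues with no lower call, limma found at an unadjusted p under 0.05 no lower gene except 1 in white fat and 1 in brain, and edgeR called 1 lower in white fat and 0 in the other 12.

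The inguinal lymph node, which drains the skin and held the highest levels after LPS, shows the size of the rise. Isg15, a ubiquitin-like protein that is attached to other proteins and also secreted, had a signal of 571, 581, 499 and 427 in TNFKO LPS mice, 413, 497, 333 and 448 in LPS mice and 60.5, 40.6, 38.6 and 39.8 in PBS mice. Ifit3b, a close copy of the Ifit1 partner Ifit3, had 300, 275, 234 and 225 in TNFKO LPS mice, 185, 332, 156 and 230 in LPS mice and 9.79, 12.1, 11.9 and 14.4 in PBS mice. Both groups given LPS lay wholly above the PBS mice for these genes and overlapped each other. The log2 change from PBS was 3.22 ± 0.15 (SE) for Isg15 and 4.07 ± 0.18 for Ifit3b, the largest of the 34 in any tissue, with limma Benjamini-Hochberg adjusted p of 2.8e-12 and 1.5e-12. In bone marrow the largest change was that of Oasl1, which limits translation of Irf7 in mouse cells. Its signal was 105, 118, 79.5 and 84.9 in TNFKO LPS mice, 216, 104, 236 and 204 in LPS mice and 13.8, 17, 18.1 and 15.4 in PBS mice. LPS mouse 6 was low among the LPS mice and lay within the TNFKO LPS mice. The LPS change was 3.43 ± 0.18 (limma adjusted p = 3.9e-13).

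The genes that led differed between tissues. Zbp1, a sensor of Z-form nucleic acid that can start cell death, changed most in liver (2.32 ± 0.17), thymus (2.73 ± 0.13), white fat (2.41 ± 0.18) and brown fat (3.03 ± 0.18). IFIT genes changed most in kidney (Ifit2, 3.72 ± 0.33), lung (Ifit3, 3.61 ± 0.18), heart (Ifit3b, 3.92 ± 0.2) and muscle (Ifit1, 2.38 ± 0.21). In spleen it was Oasl1 (2.66 ± 0.15), in skin Mx2 (2.02 ± 0.32), which the mouse annotation lists as a polymorphic pseudogene, and in brain Ifi44 (1.21 ± 0.31), an interferon-induced GTPase-like protein. In colon it was Ifitm3 (1.79 ± 0.11), which blocks fusion of viruses in endosomes. All of these passed the limma threshold in their tissue. In brain, leaving out mouse 1, 4, 5, 7 or 8 ended the Ifi44 call (adjusted p = 0.05 to 0.11).

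At the other end, the lowest signed value in a tissue, which can be a fall, belonged to a few genes. Sp100, a component of nuclear bodies, had the lowest value in spleen (−0.21, not called), skin (0.14, not called), thymus (0.52 ± 0.11), lung (0.72 ± 0.12) and inguinal lymph node (0.82 ± 0.13). Oas2, which makes the 2-5A messenger that activates RNase L, had the lowest in liver (−0.05), heart (0.14) and brain (−0.66), none of them called, and its relative Oas3 in kidney (−0.06, not called). In colon it was Mx2 (0.15, not called). Ifi27l2a, a small interferon-induced membrane protein, had the lowest value in muscle (0.02, not called), white fat (−0.52, not called), bone marrow (1.07 ± 0.11) and brown fat (−0.87 ± 0.13, called lower).

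Brown fat Ifi27l2a was the 1 lower call outside the small intestine. Its signal was 740, 738, 649 and 904 in TNFKO LPS mice, 302, 293, 401 and 274 in LPS mice and 461, 585, 607 and 666 in PBS mice. Every LPS mouse lay below every PBS mouse, and every TNFKO LPS mouse lay above every LPS mouse. The limma Benjamini-Hochberg adjusted p was 6e-05 for LPS against PBS and 9.9e-06 for TNFKO LPS against LPS, where the difference was 1.26 ± 0.13.

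By gene, 9 of the 34 were higher in all 14 other tissues: Isg15, Ifit1, Ifit3, Oasl2, Rtp4, Irf7, Xaf1, Bst2 and Ifitm3. The share of all genes higher in all 14 was not computed. Bst2 (tetherin, which holds budding virions at the cell surface) and Ifitm3 were also higher in small intestine and so in all 15. The fewest calls among the other 14 tissues were those of Ifi27l2a (5 higher), Oas3 (6), Oas2 (8) and Sp100 (8). The counts by role stand against 9.43% of all genes tested in these 14 tissues higher. By role, 51 of 56 tests of the 4 IFIT genes were higher there, 36 of 42 of Isg15, its protease Usp18 and its ligase Herc6, and 24 of 28 of the dynamin-like GTPases Mx1 and Mx2. The 6 genes of the OAS family had 60 of 84 higher, the transcription factors Irf7 and Stat2 26 of 28, and the RNA sensors Ifih1, Ddx58 and Dhx58 30 of 42. Eif2ak2 (the kinase PKR, which stops translation), Zbp1 and Xaf1 (a cofactor of apoptosis) had 40 of 42, and Bst2 and Ifitm3 28 of 28. Rsad2 (viperin, which makes a chain-terminating nucleotide) and its chromosomal neighbour Cmpk2, a mitochondrial nucleotide kinase, had 22 of 28.

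Irf7, the factor that drives the later wave of interferon production, shows how these levels ordered. In LPS mice it averaged 309 ± 23.4 (SD, n = 4) in spleen, 300 ± 41.9 in lymph node and 271 ± 44.8 in bone marrow, against 64.9 ± 14.4, 36.7 ± 2.44 and 53.2 ± 3.01 in PBS mice. Those 3 tissues did not differ in LPS mice beyond their spread. It averaged 122 ± 21.8 in small intestine, 111 ± 17.2 in muscle and 29.8 ± 4.65 in brain of LPS mice, against 108 ± 11.5, 43.5 ± 1.82 and 17.8 ± 4.67 in PBS mice. Small intestine and muscle lay within 1 SD of each other in LPS mice. The LPS change was 0.16 ± 0.12 (limma adjusted p = 0.39) in small intestine and 1.32 ± 0.15 (3.3e-08) in muscle.

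Usp18, which removes ISG15 and blocks the interferon receptor, was highest in LPS mice in bone marrow (163 ± 48.7), thymus (147 ± 22.6) and inguinal lymph node (145 ± 46.7), which overlapped, against 26.7 ± 1.63, 28.8 ± 4.09 and 25.1 ± 1.38 in PBS mice. Stat2, a transcription factor of interferon signalling, averaged 200 ± 19.6 in LPS mice, against 49.6 ± 5.63 in PBS mice, in inguinal lymph node. In bone marrow it averaged 180 ± 47.7 in LPS mice, against 41.2 ± 3.77 in PBS mice. In small intestine Stat2 averaged 82.7 ± 5.99 in TNFKO LPS mice, 67.6 ± 4.69 in LPS mice and 60.3 ± 5.01 in PBS mice, and its LPS change was not called (0.16 ± 0.11).

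In small intestine the 12 lower genes came from several roles: Ifit1 and Ifit3, Isg15 and Herc6, Oasl1 and Oasl2, Cmpk2, the RNA sensors Ifih1 (MDA5) and Ddx58 (RIG-I), and Rtp4, Parp14 and Ifi35. Cmpk2 had a signal of 25.8, 27.9, 31.7 and 37.6 in TNFKO LPS mice, 15, 25.3, 19 and 26.5 in LPS mice and 59.3, 75.6, 49.8 and 49.3 in PBS mice. Ifit1 had 107, 154, 143 and 162 in TNFKO LPS mice, 117, 112, 111 and 112 in LPS mice and 258, 401, 256 and 280 in PBS mice. For both, all LPS mice and all TNFKO LPS mice lay below all PBS mice, and the LPS and TNFKO LPS mice overlapped. The LPS change was −1.42 ± 0.18 for Cmpk2 (limma adjusted p = 6.6e-06) and −1.37 ± 0.14 for Ifit1 (2.5e-07).

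Oasl1 had 42.4, 57.6, 52.7 and 64.9 in TNFKO LPS mice, 42.7, 44.3, 51.7 and 44.3 in LPS mice and 116, 122, 65.9 and 91.6 in PBS mice. Isg15 had 178, 191, 198 and 162 in TNFKO LPS mice, 131, 108, 159 and 155 in LPS mice and 271, 374, 227 and 259 in PBS mice. Again each mouse given LPS lay below each PBS mouse. For Isg15 each TNFKO LPS mouse also lay above each LPS mouse, although that difference was not called (0.41 ± 0.14, limma adjusted p = 0.084). LPS minus PBS was −1.06 ± 0.17 for Oasl1 (adjusted p = 6.1e-05) and −1.02 ± 0.14 for Isg15 (1.2e-05, both by limma).

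For Oasl2, of the 2-5A synthetase family, and Herc6 only the LPS mice were low. Oasl2 had 189, 203, 209 and 239 in TNFKO LPS mice, 122, 148, 122 and 128 in LPS mice and 236, 271, 207 and 261 in PBS mice. Herc6 had 57.3, 61.7, 57.4 and 77.2 in TNFKO LPS mice, 38.5, 38.5, 35.4 and 46 in LPS mice and 62, 82.4, 60.1 and 56.4 in PBS mice. The TNFKO LPS mice overlapped the PBS mice for both genes, and the LPS mice lay below both other groups. LPS minus PBS was −0.89 ± 0.11 for Oasl2 (limma adjusted p = 3.3e-06) and −0.70 ± 0.14 for Herc6 (0.00093).

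The other lower genes changed less. Ddx58 fell by 0.67 on the log2 scale (limma adjusted p = 0.0017), Ifih1 by 0.59 (0.00067), Ifi35 by 0.56 (0.0019) and Rtp4, a receptor-trafficking protein, by 0.47 (0.003), and in each the LPS mice lay below all PBS mice. Parp14, an ADP-ribosyltransferase, fell by 0.42 (0.03) with overlapping groups. That call was lost on the LPS and PBS mice alone (adjusted p = 0.057) and without mouse 2, 3, 5 or 6 (0.096, 0.1, 0.056 and 0.11, all by limma). Ifit3 had 154, 159, 167 and 158 in TNFKO LPS mice, 122, 114, 140 and 113 in LPS mice and 129, 221, 147 and 144 in PBS mice. Its change of −0.36 ± 0.13 passed at a limma adjusted p that rounds to 0.05 and was lost under 13 of 18 alternatives, with adjusted p up to 0.2 without mouse 2. Over the last 300 bases, where 3′ tags fall, Ifit3 and Ifit3b are 94.3% identical and Oas1a and Oas1g 96.7%, so how reads were divided within each pair is uncertain. Summed, Ifit3 and Ifit3b had 190, 195, 208 and 188 in TNFKO LPS mice, 147, 140, 163 and 127 in LPS mice and 156, 260, 188 and 167 in PBS mice.

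The 5 higher genes in small intestine were Ifitm3, Ifit2, Ifi27l2a, Bst2 and Zbp1. Ifitm3 had 736, 696, 696 and 623 in TNFKO LPS mice, 778, 708, 973 and 814 in LPS mice and 229, 219, 221 and 216 in PBS mice. Ifit2, which lies beside Ifit1 and Ifit3 on chromosome 19, had 17.2, 16.7, 21.4 and 16.8 in TNFKO LPS mice, 15, 15.5, 21.1 and 16.7 in LPS mice and 3.54, 7.35, 5.86 and 8.05 in PBS mice. Both groups given LPS overlapped and lay above every PBS mouse. The LPS change was 1.87 ± 0.1 for Ifitm3 (limma adjusted p = 2.7e-11) and 1.36 ± 0.22 for Ifit2 (0.0001).

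Ifi27l2a had 295, 281, 267 and 270 in TNFKO LPS mice, 175, 173, 195 and 140 in LPS mice and 120, 110, 104 and 110 in PBS mice, so the groups stood in 3 separate steps. Bst2 had 193, 194, 188 and 182 in TNFKO LPS mice, 158, 135, 258 and 158 in LPS mice and 117, 134, 110 and 106 in PBS mice. Zbp1 had 107, 138, 136 and 160 in TNFKO LPS mice, 128, 88, 126 and 151 in LPS mice and 68.2, 128, 67.4 and 82.5 in PBS mice. For Bst2 the LPS mice lay just above the PBS mice, and for Zbp1 they overlapped. The LPS change was 0.61 ± 0.11 for Ifi27l2a (limma adjusted p = 0.00017), 0.56 ± 0.14 for Bst2 (0.0069) and 0.53 ± 0.18 for Zbp1 (0.037). The Zbp1 call was lost without any filter (adjusted p = 0.068), on the LPS and PBS mice alone (0.051) and without mouse 1, 3, 4, 5, 7 or 8 (0.12, 0.13, 0.074, 0.081, 0.062 and 0.13, all by limma).

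Among the 17 genes not called in small intestine, Irf7 had 111, 123, 113 and 109 in TNFKO LPS mice, 122, 93.2, 146 and 129 in LPS mice and 120, 116, 96.7 and 101 in PBS mice. Rsad2, the neighbour of Cmpk2 (chr12:26442746-26456452 and chr12:26469204-26479837 in mm10), had 48.2, 50.4, 45.8 and 39.1 in TNFKO LPS mice, 49.4, 52.9, 55.1 and 47.2 in LPS mice and 49.6, 62.5, 49.8 and 59.4 in PBS mice. The 3 groups overlapped for both genes, and the log2 changes were 0.16 ± 0.12 and −0.11 ± 0.13. Usp18 (−0.34 ± 0.14, limma adjusted p = 0.093), Mx1 (0.72 ± 0.27, 0.055) and Oas3 (−0.59 ± 0.22, 0.062) missed the threshold by less, and Eif2ak2 had a change of 0.02 ± 0.12. Of all 34, 10 had every LPS mouse below every PBS mouse and 4 every LPS mouse above, where 12.9% and 9.32% of all genes tested lay so.

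**Figure D2:**
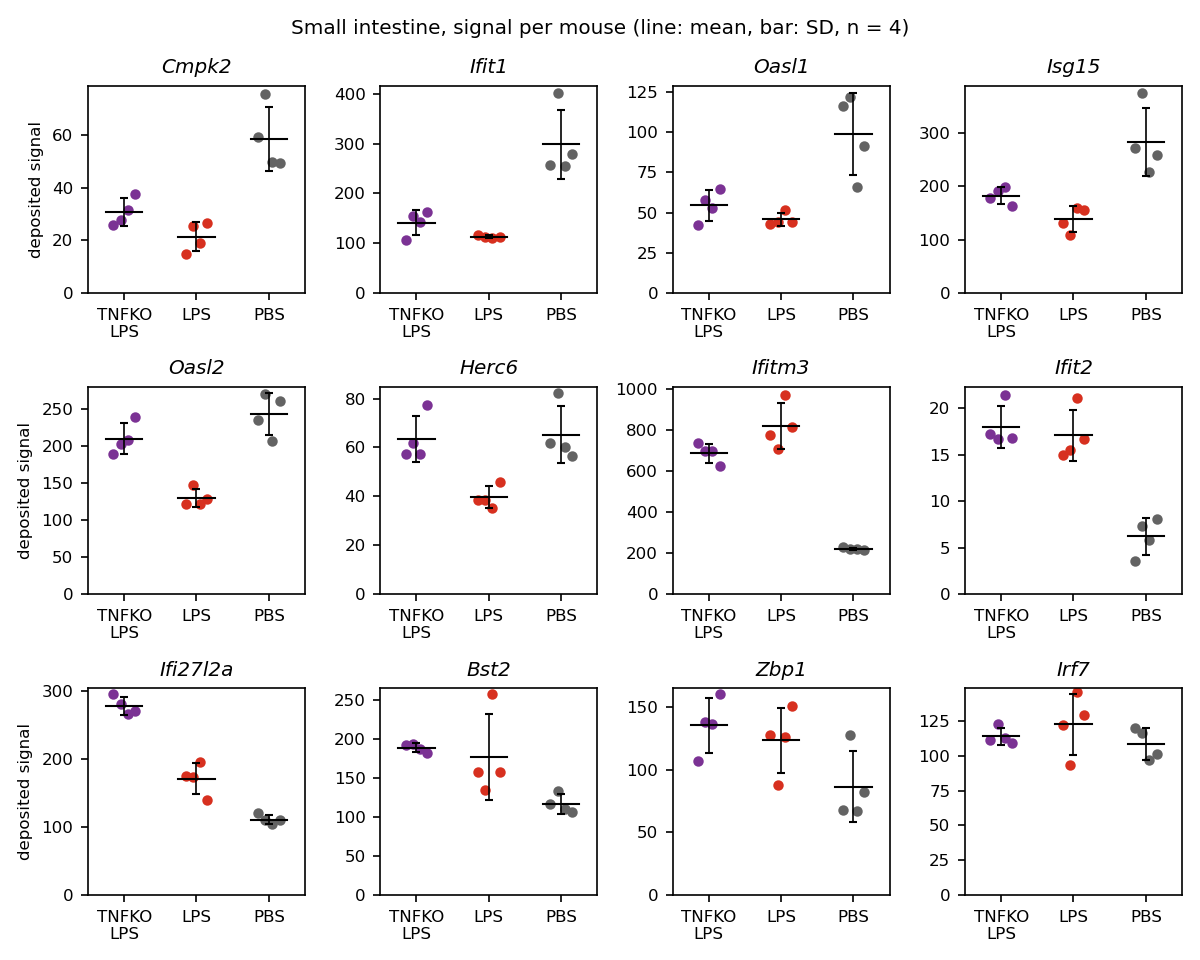
Deposited signal in small intestine for 12 of the genes, 1 point per mouse, with the mean (line) and SD (bar) of the 4 mice of each group, TNFKO LPS, LPS and PBS. In the LPS mice, Cmpk2, Ifit1, Oasl1, Isg15, Oasl2 and Herc6 lie below every PBS mouse, while Ifitm3, Ifit2, Ifi27l2a and Bst2 lie above.

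The position of response elements was read from the promoters of the genes. RefSeq promoters on GRCm38.p6 (250 bases before to 50 after the start site) were matched by symbol for 25 of the 34 genes. The 9 others were Usp18, Mx1, Mx2, Oas2, Dhx58, Zbp1, Rtp4, Parp14 and Ifi27l2a. The core of the interferon-stimulated response element was searched as GAAA, any 2 bases and GAAA (TTTC, any 2 bases and TTTC on the other strand), and was present in 15 of the 25 genes (60%) and in 3.99% of all 27025 genes in the table. Cores may overlap one another. The core of the gamma-activated site (TTC, any 3 bases and GAA, which reads the same on the other strand) was present in 6 (24%) and in 9.55% of all genes. The promoters of Ifit1 and Isg15 are shown because these genes had among the largest falls in small intestine and rose in every other tissue. Each is given as the 250 bases before the start site, 5′ to 3′ on the gene's strand, with the response element cores in capitals: chr19:34640639-34640888, plus strand, for Ifit1 and chr4:156200819-156201068, minus strand, for Isg15.
Ifit1: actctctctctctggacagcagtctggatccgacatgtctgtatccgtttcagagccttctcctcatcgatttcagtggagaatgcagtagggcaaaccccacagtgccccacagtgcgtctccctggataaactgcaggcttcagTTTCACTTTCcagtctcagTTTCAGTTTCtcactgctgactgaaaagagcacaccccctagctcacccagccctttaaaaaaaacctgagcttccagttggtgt
Isg15: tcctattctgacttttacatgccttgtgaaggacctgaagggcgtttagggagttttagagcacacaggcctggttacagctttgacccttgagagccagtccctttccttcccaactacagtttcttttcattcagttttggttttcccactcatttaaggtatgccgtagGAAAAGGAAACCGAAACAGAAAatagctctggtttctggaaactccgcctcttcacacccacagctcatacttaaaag
Ifit1 holds 2 cores and Isg15 holds 3 that overlap.

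Cores were present on both sides of the split in small intestine. Of the 12 genes lower there, 10 had a promoter in the table and 5 of those held a core. Of the 5 higher genes, 3 had a promoter and 2 held a core, and of the 17 not called, 12 had a promoter and 8 held a core. Windows of up to 30 bases from Bst2 and Ifitm3, higher in small intestine, and from Ifih1 and Ddx58, lower there, are shown to set the cores (capitals) side by side. They lie on the minus strand at chr8:71537583-71537612, chr7:141010723-141010752, chr2:62646206-62646233 and chr4:40239804-40239833.
Bst2: ggcattccagGAAAATGAAACTGAAAggct
Ifitm3: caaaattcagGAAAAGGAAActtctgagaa
Ifih1: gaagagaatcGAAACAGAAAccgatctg
Ddx58: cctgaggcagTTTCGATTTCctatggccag
The Bst2 window holds 2 cores that overlap. A match gives letters only and does not show that a factor binds there.

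The next comparison asks whether the LPS change in small intestine differed from that in the other tissues. In a joint fit of all 180 libraries, the LPS change in small intestine was lower than the mean of the other 14 tissues for 30 of the 34 genes and higher for 0, while 7.55% of all genes tested were lower and 4.34% higher. The median difference was −1.72 over the 34 and 0.02 over all genes. This fit had no term for the mouse, so libraries of the same mouse were treated as independent. The groups held 4 mice each, and the SE and p of the fit do not account for the pairing of tissues within mice. Fits that used the mouse are given in the last section. No gene of the list was higher at an unadjusted p under 0.05 in limma or by edgeR (0 in both). The largest differences were those of Ifit1 (−3.71 ± 0.27, limma adjusted p = 2.8e-25), Oasl1 (−3.03 ± 0.28, 3.3e-18), Isg15 (−2.93 ± 0.21, 1.4e-26), Cmpk2 (−2.74 ± 0.29, 4e-14), Ifit3 (−2.60 ± 0.23, 6.9e-20) and Ifit3b (−2.56 ± 0.26, 3.9e-15). Irf7 differed by −1.86 ± 0.16 and Usp18 by −1.94 ± 0.26.

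The 4 genes that did not pass were Ifitm3 (0.11 ± 0.12, limma adjusted p = 0.62), Ifi27l2a (0.34 ± 0.18, 0.26), Ifit2 (−0.79 ± 0.47, 0.31) and Oas1a (−1.06 ± 0.4, 0.067). A p above the threshold does not show that their changes were alike. Against single tissues, with the shares of all genes lower and higher in brackets, the small intestine change was lower for 32 genes against inguinal lymph node (4.08% and 3.18%), 31 against bone marrow (5.93% and 4.05%), 31 against lung (7.69% and 6.47%), 31 against thymus (7.48% and 5.18%) and 30 against kidney (7.98% and 7.15%). It was lower for 27 against brown fat (9.86% and 5.68%), 26 against spleen (6.77% and 5.43%), 26 against heart (6.14% and 4.07%), 25 against white fat (7.83% and 4.9%) and 23 against skin (7% and 4.1%). The lowest counts were 22 against liver (10.5% and 9.19%), 20 against muscle (7.25% and 5.16%), 16 against colon (3.35% and 2.38%) and 13 against brain (3.95% and 2.49%). In 6 of these 14 comparisons 1 gene went against the majority and was higher in small intestine. It was Ifitm3 against liver (0.94 ± 0.16, limma adjusted p = 7.1e-07), brain (0.71 ± 0.16, 0.00077), thymus (0.50 ± 0.16, 0.018) and skin (0.46 ± 0.16, 0.038). Against brown fat (1.48 ± 0.25, 9.4e-07) and white fat (1.14 ± 0.25, 0.00028) it was Ifi27l2a, whose LPS change was 0.61 in small intestine, −0.87 in brown fat and −0.52 in white fat.

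Colon, the other intestinal tissue, is the closest in kind. The difference from colon was lower for 16 genes and higher for 0, where 3.35% of all genes tested were lower and 2.38% higher, with a median of −0.91. It was −2.29 ± 0.37 for Ifit1 (limma adjusted p = 2.4e-06), −1.81 ± 0.4 for Cmpk2 (0.0011), −1.60 ± 0.28 for Isg15 (1.5e-05), −1.49 ± 0.22 for Oasl2 (1.6e-07), −1.41 ± 0.38 for Oasl1 (0.011) and −1.39 ± 0.26 for Ifi35 (3.9e-05). In colon Ifit1 had 90.2, 97, 82.1 and 97.1 in TNFKO LPS mice, 174, 107, 285 and 273 in LPS mice and 95, 138, 111 and 76.8 in PBS mice. The TNFKO LPS mice overlapped the PBS mice, and LPS mouse 6 was low among the LPS mice. The LPS change in colon was 0.92 ± 0.2 for Ifit1 (limma adjusted p = 0.0013) and 0.58 ± 0.15 for Isg15 (0.0071). Isg15 had 100, 128, 94 and 95.7 in TNFKO LPS mice, 127, 113, 200 and 184 in LPS mice and 81.8, 113, 107 and 107 in PBS mice there.

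**Figure D3:**
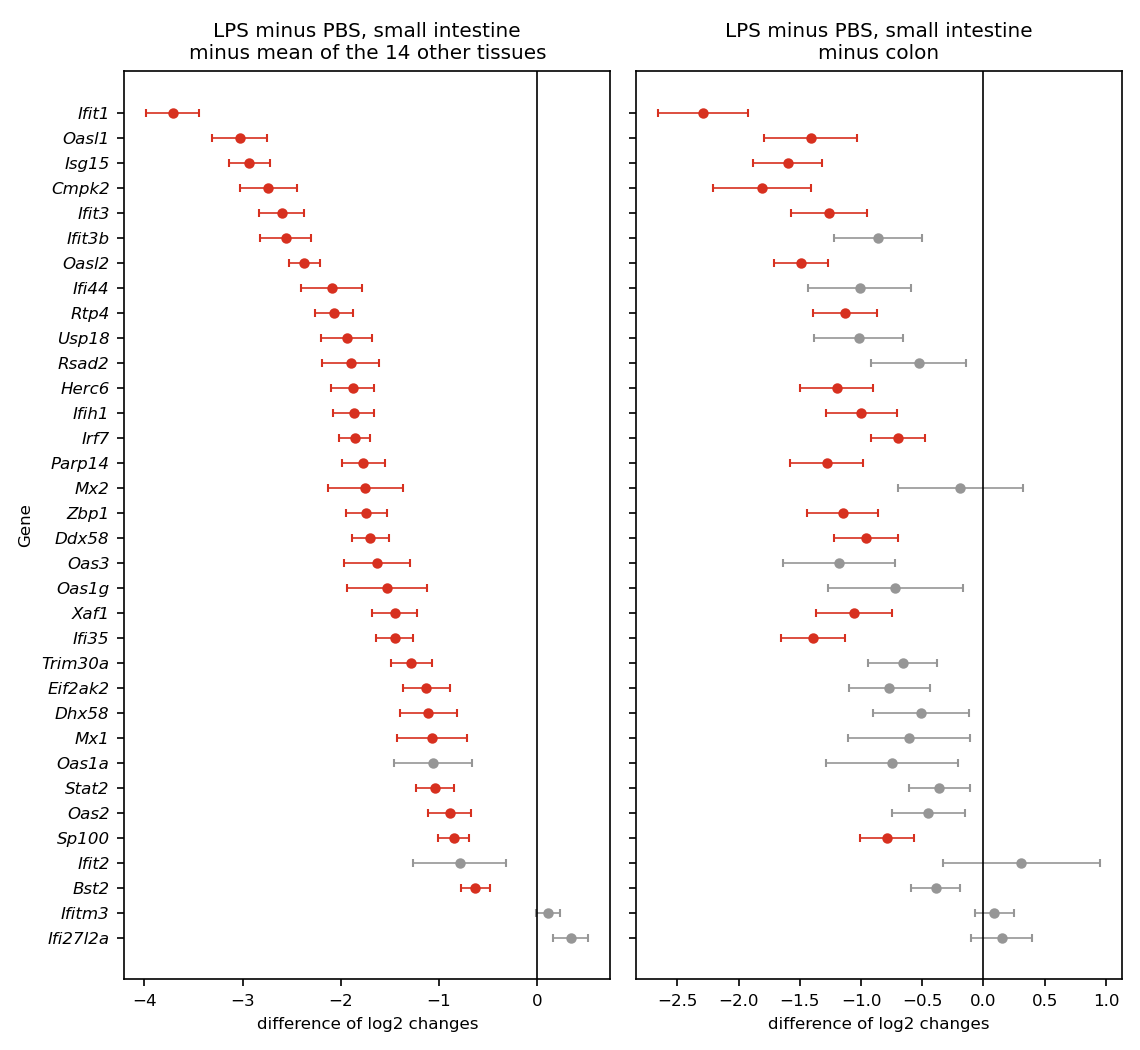
Difference of the log2 change (LPS minus PBS) between small intestine and the mean of the other 14 tissues (left) or colon (right) for each of the 34 genes, with SE bars, in colour where the limma adjusted p was below 0.05. Of the 34, 30 lie left of 0 in colour against the 14 tissues and 16 against colon, and Ifitm3 and Ifi27l2a lie at or above 0 in both.

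The small intestine also started from the highest level. In PBS mice the level was higher in small intestine than the mean of the other 14 tissues for 27 of the 34 genes and lower for 2, while 28.1% of all genes tested were higher and 30.5% lower. The median difference was 1.24 over the list and −0.07 over all genes. The PBS mean in small intestine ranked first of the 15 tissues for 23 genes. For 10 of them (Ifit1, Usp18, Herc6, Oas1g, Oasl1, Oasl2, Ifih1, Ifi44, Parp14 and Ifi35) all 4 small intestine libraries lay above every other PBS library. The shares of all genes that ranked first or lay so were not computed, so these counts describe the listed genes only. Ifit1 averaged 299 in small intestine of PBS mice, 105 in colon and 14.1 in brain, and the median of the other 14 tissue means was 36. Oasl2 averaged 243 in small intestine and 132 in colon, the next tissue.

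The largest differences of PBS level, in log2, were those of Oas1g (3.16 ± 0.29), Ifit1 (3.02 ± 0.19), Oas1a (2.54 ± 0.28), Oasl1 (2.46 ± 0.2), Oasl2 (2.29 ± 0.11) and Ifih1 (2.21 ± 0.15), all called by limma. How reads were divided between Oas1g and Oas1a is uncertain. Oas1a was also low elsewhere: it averaged 14.8 in small intestine of PBS mice, and the median of the other 14 tissue means was 1.72. The 2 lower genes were Ifi27l2a (−0.89 ± 0.13) and Ifitm3 (−0.81 ± 0.082). Both are among the 5 that rose under LPS in small intestine. The PBS mice enter both this difference and the LPS change, with opposite sign, so the values are not independent and each is given as its own.

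Levels after LPS ordered the tissues differently. The median of log2(signal + 1) over the 34 genes, averaged over 4 libraries, was 6.05 in TNFKO LPS mice, 5.76 in LPS mice and 6.03 in PBS mice in small intestine. That was the eighth-highest, the twelfth-highest and the highest of the 15 tissues in the 3 groups. The small intestine libraries ran from 6.00 to 6.11 in TNFKO LPS mice, 5.66 to 5.84 in LPS mice and 5.88 to 6.23 in PBS mice, so the LPS mice stood below both other groups. In inguinal lymph node the mean was 7.71 in TNFKO LPS mice, 7.62 in LPS mice and 4.94 in PBS mice. Bone marrow was second in PBS mice at 5.41 and lay below every small intestine PBS library.

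**Figure D4:**
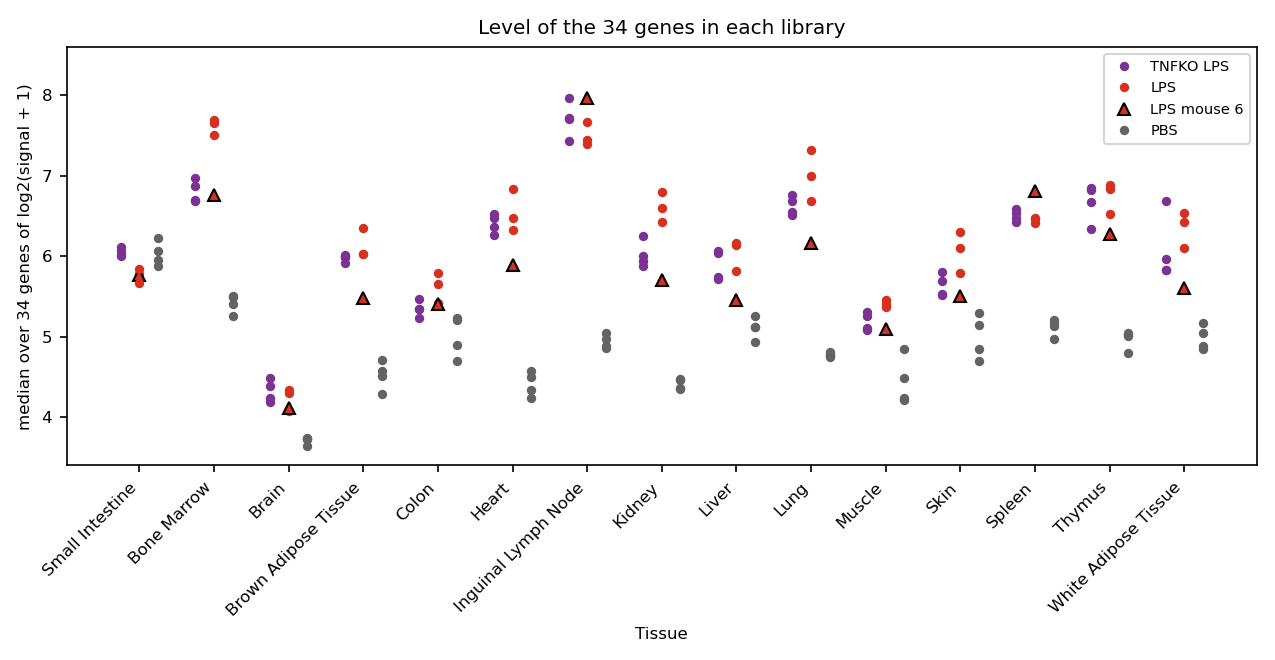
Median over the 34 genes of log2(signal + 1) in every library, by tissue, for TNFKO LPS, LPS and PBS mice, with LPS mouse 6 as a triangle. The PBS libraries of small intestine (5.88 to 6.23) lie above those of all other tissues, the LPS libraries lie above the PBS libraries in the 14 other tissues, and mouse 6 is the lowest LPS mouse in 11 tissues.

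Markers of several cell types moved in small intestine too. The small intestine counts below stand against 9.92% of all genes higher and 13.4% lower in LPS than in PBS mice. Between TNFKO LPS and LPS mice the shares were 4.47% higher and 2.65% lower. Of 14 enterocyte markers 12 were lower in LPS than in PBS mice, with a summed signal of 9494 to 15990 in TNFKO LPS mice, 6355 to 16690 in LPS mice and 25930 to 30940 in PBS mice. In colon that sum was 2342 to 2808 in TNFKO LPS mice, 2117 to 2383 in LPS mice and 2348 to 3071 in PBS mice, with 2 of 14 markers lower and 2 higher. Of all genes tested in colon, 7.76% were lower and 9.45% higher in LPS than in PBS mice. Of 7 plasma cell markers 4 were lower in LPS than in PBS mice and 4 were higher in TNFKO LPS than in LPS mice, with sums of 3224 to 4241 in TNFKO LPS mice, 1389 to 1979 in LPS mice and 3117 to 3980 in PBS mice. Of 9 Paneth cell markers 4 were lower and 1 higher in LPS than in PBS mice. All 9 were higher in TNFKO LPS than in LPS mice, with sums of 78730 to 90930 in TNFKO LPS mice, 38920 to 61540 in LPS mice and 57810 to 73950 in PBS mice.

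Goblet cell markers (5 of 7 lower under LPS, 4 higher in TNFKO LPS than in LPS mice) summed to 6658 to 9455 in TNFKO LPS mice, 4041 to 6379 in LPS mice and 7099 to 7953 in PBS mice. In colon 5 of 7 were also lower under LPS, and 4 were higher and 1 lower in TNFKO LPS than in LPS mice. Of 7 plasma cell markers in colon 3 were lower and 1 higher under LPS, and 0 were called between TNFKO LPS and LPS mice. Of all genes tested in colon, 2.51% were higher and 1.31% lower in TNFKO LPS than in LPS mice. The 9 macrophage markers (5 higher, 1 lower) summed to 292.1 to 351.2 in TNFKO LPS mice, 262.5 to 320.4 in LPS mice and 216.3 to 233.8 in PBS mice. The 8 plasmacytoid dendritic cell markers, of cells known for interferon production, summed to 253.1 to 283.2 in TNFKO LPS mice, 251.9 to 306.4 in LPS mice and 227.5 to 284.3 in PBS mice (2 higher, 1 lower). The 11 pancreatic acinar markers summed to 16.84 to 56.18 in TNFKO LPS mice, 99.29 to 388.9 in LPS mice and 151 to 2830 in PBS mice, with all 11 lower in TNFKO LPS than in LPS mice and 6 lower in LPS than in PBS mice. The 7 fibroblast markers summed to 979.4 to 1220.0 in TNFKO LPS mice, 765.7 to 846.0 in LPS mice and 789.0 to 804.1 in PBS mice. Of these, 2 were higher and 2 lower in LPS than in PBS mice, and 4 were higher in TNFKO LPS than in LPS mice. Of 12 T cell, 8 B cell, 10 neutrophil and 5 erythroid markers, 0 were called in small intestine between LPS and PBS mice. Of 6 smooth muscle markers 3 were lower and 0 higher there. Of 9 intraepithelial and cytotoxic lymphocyte markers 2 were lower and 1 higher. The 8 endothelial and the 4 crypt markers each had 1 lower and 1 higher. Between TNFKO LPS and LPS mice 1 neutrophil marker was higher, and no other marker of these lists was called. Of the markers in the table, none was at 0 in every small intestine library. Their part in the changes of the interferon-stimulated genes was not tested.

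The pathway around these genes was read from further lists. The interferon genes themselves (Ifnb1, Ifna1, Ifng and 7 more) had no row in the table of values, so they could not be analysed here. The counts below stand against 9.92% of all genes higher and 13.4% lower in small intestine, and 9.43% and 10.2% in the other 14 tissues. Of 9 receptor and signalling genes, 1 was higher and 2 were lower in LPS than in PBS mice in small intestine, and 40 were higher and 10 lower of 126 tests in the other 14 tissues. The receptor subunit Ifnar2 had a change of 0.72 (limma adjusted p = 0.0096) in small intestine, Ifnar1 one of 0.09 (0.76) and Irf9 one of −0.07 (0.74).

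Of 75 further interferon-stimulated genes measured, 23 of 74 tested were higher and 14 lower under LPS in small intestine (median 0.13). In colon 28 of 74 were higher and 0 lower, where 9.45% of all genes tested were higher and 7.76% lower. In the 14 other tissues together 642 of 1037 tests were higher and 6 lower (median 0.86). Ifit1bl1, a member of the IFIT cluster, had 101, 129, 125 and 145 in TNFKO LPS mice, 53.6, 48.9, 46.2 and 73.1 in LPS mice and 191, 316, 190 and 268 in PBS mice of small intestine. Ifitm1, beside Ifitm3, had 161, 158, 172 and 130 in TNFKO LPS mice, 218, 186, 224 and 211 in LPS mice and 28.3, 26.8, 22.7 and 22.1 in PBS mice. So relatives of Ifit1 and of Ifitm3 stood on the 2 sides of the PBS mice, with log2 changes of −2.09 (limma adjusted p = 7.9e-09) and 3.02 (1.9e-13). Ddx60 fell by 1.49 (1.3e-06) and the surface antigen Ly6a rose by 2.42 (1.1e-08).

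Of 35 genes chosen as more responsive to interferon gamma, 18 were higher and 0 lower in small intestine (median 0.40). The LPS change there was lower than the mean of the other 14 tissues for 15 and higher for 0. In that contrast 7.55% of all genes tested were lower and 4.34% higher. In the other 14 tissues 362 of 490 tests were higher and 25 lower (median 1.25). Gbp2, a guanylate-binding protein that attacks intracellular pathogens, had 273, 316, 233 and 212 in TNFKO LPS mice, 284, 189, 430 and 417 in LPS mice and 52.3, 65.1, 63 and 72.5 in PBS mice of small intestine. The 2 groups given LPS overlapped and lay above all PBS mice (log2 change of LPS 2.30, limma adjusted p = 1.5e-08). A mixed list of Socs1, Socs3, Isg20, Samhd1, Ptpn6 and Pias1 had 2 higher and 0 lower in small intestine, with Socs3 at 1.81 (limma adjusted p = 2.4e-05). Isg20 also stood in the list of further interferon-stimulated genes. Of 14 genes of interferon induction 2 were higher and 2 lower, near the share of all genes. Among them the LPS adaptor Myd88 stood at 0.93 (0.00016) and the RNA-sensing adaptor Mavs at −0.74 (0.044, both by limma). None of these lists is given as evidence about its pathway, since lists and genes were chosen with results of these data known.

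The last comparison asks how TNFKO LPS mice differed from LPS mice. The LPS mice stand in this comparison and in that of LPS with PBS, so the 2 sets of values are given side by side only. Over the other 14 tissues 29 of 476 tests were higher in TNFKO LPS mice and 28 were lower, while 3.15% of all genes tested were higher and 2.29% lower. The median difference was −0.08. In small intestine 6 of 34 were higher and 0 were lower, with a median of 0.29, while 4.47% of all genes were higher and 2.65% lower. At an unadjusted p under 0.05 limma found 18 higher and 1 lower there, and edgeR called 6 higher and 0 lower. In 11 of the 34 every TNFKO LPS mouse lay above every LPS mouse in small intestine and in 0 below, where 8.51% and 4.76% of all genes tested lay so.

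The 6 higher genes in small intestine were Ifi44, Ifi27l2a, Ifit3b, Oasl2, Herc6 and Ddx58. Ifi44 had 57.9, 49.5, 43.3 and 54 in TNFKO LPS mice, 26.5, 26.5, 44.9 and 27 in LPS mice and 37.2, 40.9, 34.4 and 46.3 in PBS mice, so 1 LPS mouse lay within the TNFKO LPS mice. The differences were 0.72 ± 0.17 for Ifi44 (limma adjusted p = 0.0098), 0.71 ± 0.11 for Ifi27l2a (0.00018), 0.71 ± 0.21 for Ifit3b (0.039), 0.68 ± 0.11 for Oasl2 (0.00045), 0.66 ± 0.14 for Herc6 (0.0059) and 0.51 ± 0.15 for Ddx58 (0.034). Leaving out mouse 5, 7, 8, 9, 11 or 12 ended the Ddx58 call (adjusted p = 0.058, 0.098, 0.097, 0.057, 0.085 and 0.12), as did using no filter (0.053) or the TNFKO LPS and LPS mice alone (0.052). The Ifit3b call was lost without mouse 8, 9, 10 or 11 (0.16, 0.096, 0.09 and 0.12), without any filter (0.068) and after rescaling (0.054, all by limma). All but Ifi27l2a, Ifi44 and Ifit3b had also been called lower in LPS than in PBS mice.

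The difference between TNFKO LPS and LPS mice in small intestine was larger than the mean of the other 14 tissues for Oasl2 (0.60 ± 0.16, limma adjusted p = 0.025) and for no other of the 34, where 0.806% of all genes tested were higher and 0.731% lower. None was lower, also at an unadjusted p under 0.05, at which 13 were higher, and edgeR called 4 higher and 0 lower. Leaving out mouse 5, 7, 8, 11 or 12 ended the Oasl2 call (adjusted p = 0.13, 0.097, 0.13, 0.098 and 0.17). Without mouse 6, 6 genes passed. The count with the mouse as a replicate block was 2, and 5 in a fit of differences within each mouse.

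**Figure D5:**
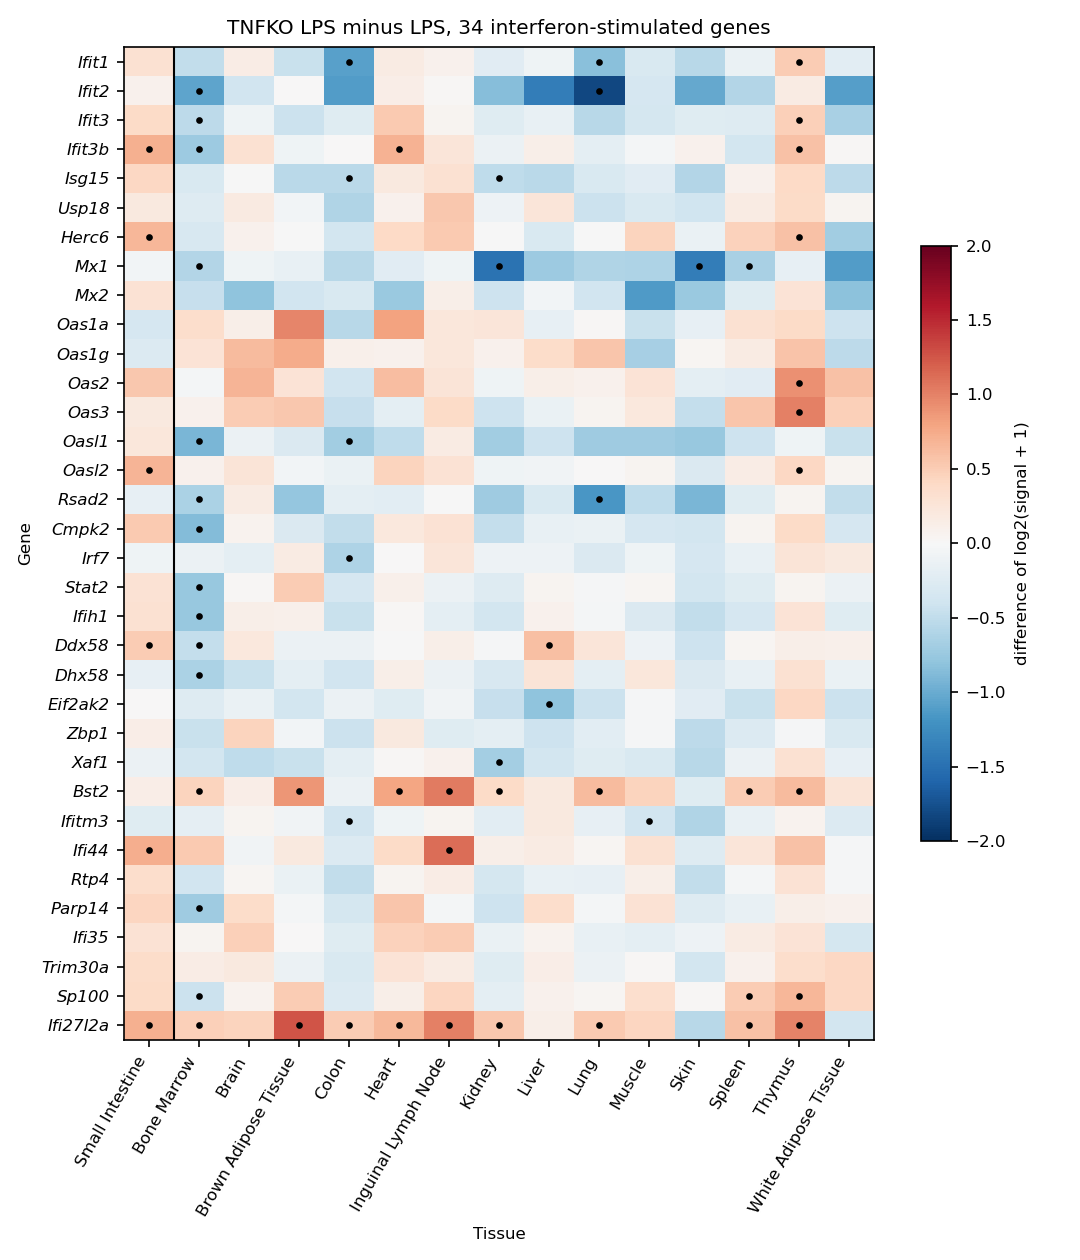
Log2 difference, TNFKO LPS minus LPS mice (4 against 4), of each of the 34 genes (rows) in each tissue (columns), with a dot where the limma adjusted p was below 0.05. Thymus holds 10 genes called higher, bone marrow 13 called lower, and Ifi27l2a and Bst2 are called higher in 10 and 8 tissues.

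Bone marrow and thymus stood at the 2 ends. In bone marrow 13 genes were lower in TNFKO LPS mice and 2 were higher, where 3.55% of all genes tested were lower and 2.57% higher. The largest were Ifit2 (−1.06 ± 0.24, limma adjusted p = 0.0078) and Oasl1 (−0.92 ± 0.18, 0.0029). Ifit2 had 51.1, 90.8, 43.5 and 48.3 in TNFKO LPS mice, 149, 64, 156 and 127 in LPS mice and 6.56, 12, 12.8 and 11.2 in PBS mice there. The groups given LPS overlapped through LPS mouse 6, the second value of its group. In thymus 10 genes were higher and 0 lower, where 2.3% of all genes tested were higher and 2.16% lower, and neither an unadjusted p under 0.05 in limma nor edgeR gave a lower gene (0 in both). Oas3 had 59.2, 73.4, 73.8 and 61.4 in TNFKO LPS mice, 28.1, 32.1, 31.7 and 39.3 in LPS mice and 13.7, 6.21, 15.1 and 4.32 in PBS mice of thymus. Each TNFKO LPS mouse lay above each LPS mouse (1.01 ± 0.23, limma adjusted p = 0.0038), and likewise for Ifi27l2a (0.99 ± 0.099, 4.6e-10). The thymus count was 6 without mouse 6, 7 or 11 and 5 without a filter on low values, and the bone marrow count of lower genes 8 without mouse 8.

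Ifi27l2a and Bst2 were higher in TNFKO LPS mice in the most tissues, 10 and 8, and lower in 0. Ifi27l2a was called in small intestine and in brown fat, thymus, inguinal lymph node (1.00 ± 0.16), heart (0.65 ± 0.13), spleen (0.59 ± 0.14), kidney (0.54 ± 0.096), lung (0.52 ± 0.13), colon (0.51 ± 0.11) and bone marrow (0.48 ± 0.11). Bst2 in inguinal lymph node had 574, 541, 508 and 634 in TNFKO LPS mice, 263, 381, 219 and 249 in LPS mice and 101, 103, 112 and 122 in PBS mice. The 3 groups did not overlap, and the difference was 1.04 ± 0.13 (limma adjusted p = 0.00015). Bst2 also differed in brown fat (0.89 ± 0.13), heart (0.79 ± 0.12), thymus (0.64 ± 0.1), lung (0.63 ± 0.13), spleen (0.50 ± 0.14), bone marrow (0.45 ± 0.11) and kidney (0.39 ± 0.1). In bone marrow the calls of both genes were lost without mouse 8 or 9 (adjusted p = 0.055 to 0.072, by limma). In lung that of Ifi27l2a was lost without mouse 8 or 10 (0.069 and 0.067). In spleen it was lost without mouse 7 or 8 (0.068 and 0.058), and that of Bst2 without mouse 3, 7, 8, 9, 10, 11 or 12 (0.053 to 0.2).

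Ifi44 in inguinal lymph node had 126, 95, 79.9 and 129 in TNFKO LPS mice, 48.6, 70.7, 34.3 and 46.8 in LPS mice and 6.91, 8.04, 12.6 and 6.36 in PBS mice, again in 3 separate steps (1.11 ± 0.21, limma adjusted p = 0.0069). That tissue had 3 genes higher and 0 lower, where 1.72% of all genes were higher and 1.4% lower. Heart had 3 higher and 0 lower (3.32% and 2.35%), with Ifit3b at 0.69 ± 0.2 (adjusted p = 0.039). Leaving out mouse 6, 9, 10, 11 or 12 ended that call (0.094, 0.076, 0.084, 0.052 and 0.13). Spleen had 3 higher and 1 lower (2.56% and 1.59%), with Sp100 at 0.50 ± 0.14 and Mx1 at −0.65 ± 0.17, and brown fat 2 higher and 0 lower (1.7% and 1.23%). At an unadjusted p under 0.05 limma found 0 lower in inguinal lymph node, 1 in heart and 4 in brown fat, and edgeR called 0, 2 and 2. Liver had 1 higher and 1 lower (5.96% and 3.43%), Ddx58 at 0.60 ± 0.18 and Eif2ak2 at −0.81 ± 0.22. The spleen Mx1 call was lost without mouse 6, 8, 9, 11 or 12, the Sp100 call without mouse 3, 7, 8, 9, 10, 11 or 12, the liver Ddx58 call without mouse 5, 8, 9 or 11 and the Eif2ak2 call without mouse 11.

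Besides bone marrow, spleen and liver, lower calls were in lung (3 of 34, where 2.28% of all genes were lower, and 2 higher, 3.71%), kidney (3 lower, 6.82%; 2 higher, 13.2%), colon (5 lower, 1.31%; 1 higher, 2.51%), skin (1 lower, 1.36%; 0 higher, 1.43%) and muscle (1 lower, 2.16%; 0 higher, 1.82%). At an unadjusted p under 0.05 limma found 0 higher in skin and 2 in muscle, and edgeR called 0 and 1. Ifit2 in lung had 28.2, 29.1, 27.2 and 28.9 in TNFKO LPS mice, 90.8, 27.8, 281 and 151 in LPS mice and 8.35, 8.84, 7.07 and 6.05 in PBS mice. The TNFKO LPS mice were close together, and the LPS mice ran from their level to well above it, with mouse 6 lowest. The difference was −1.82 ± 0.38 (limma adjusted p = 0.0033). Mx1 in kidney had 15.5, 22.3, 18 and 19.9 in TNFKO LPS mice, 49.4, 16.7, 117 and 86.8 in LPS mice and 12.6, 11.5, 6.99 and 10.7 in PBS mice (−1.48 ± 0.35, 0.0033). Its product blocks influenza viruses, and most inbred laboratory strains carry a defective copy.

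Ifit1 in colon differed by −1.09 ± 0.2 (limma adjusted p = 0.0013), with each TNFKO LPS mouse below each LPS mouse, and Oasl1 in colon by −0.69 ± 0.19 (0.039). Rsad2 in lung differed by −1.16 ± 0.3 (0.02), Xaf1 in kidney by −0.68 ± 0.18 (0.009), Ifitm3 in muscle by −0.38 ± 0.11 (0.034) and Mx1 in skin by −1.38 ± 0.35 (0.038, all by limma). In colon the Oasl1 call was lost when mouse 2, 7, 8, 9, 10, 11 or 12 was left out (adjusted p = 0.05 to 0.19) and the lung Rsad2 call without mouse 7, 8, 11 or 12 (0.06 to 0.092). That of Ifitm3 in muscle was lost without mouse 7, 8, 9, 11 or 12 (0.066 to 0.16) and that of Mx1 in skin without mouse 7, 8, 9, 10 or 12 (0.057 to 0.13). In white fat (0.79% of all genes higher, 2.07% lower) and brain (0.55% and 0.467%) limma called 0 in either direction. At an unadjusted p under 0.05 it found 3 higher and 7 lower in white fat and 3 higher and 1 lower in brain, and edgeR called 0 in both.

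LPS mouse 6 stood apart for these genes. By the median of log2(signal + 1) over the 34 it was the lowest of the 4 LPS mice in 11 tissues and the highest in spleen and inguinal lymph node, while mouse 7 was the highest in 11. Without mouse 6, 94 of the 476 tests in the other 14 tissues were lower in TNFKO LPS mice, against 28 with it, and the share of all genes called lower there was 3.38%, against 2.29% with it. Without it bone marrow had 21 lower (5.62% of all genes), kidney 19 (8.89%), colon 14 (2.62%), lung 14 (5.03%), skin 10 (2.89%), white fat 5 (3.22%), liver 4 (4.13%), heart 3 (3.41%) and brown fat 3 (2.27%). Inguinal lymph node then had 7 higher (2.75%), thymus 6 (2.86%) and spleen 3 (3.59%), and the others of the 14 tissues had 0 to 2 higher. The share of all genes called higher in the 14 tissues was 4.23%, against 3.15% with mouse 6. The number of higher calls there, 29, ran from 21 to 31 with 1 mouse left out. The small intestine count was 6 higher and 0 lower with and without it. Leaving out mouse 7, 8, 11 or 12 instead gave 18, 14, 17 and 18 lower, so the number of lower calls outside small intestine rests on single mice.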

How the data were processed

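The deposited values are a signal per gene, normalized by the authors in a way not given in the sources used here, with library sums of 703690 to 1603067. FastQC, MultiQC and edgeR are named in the submitters' processing notes, and the genome build is mm10. The aligner and whether the 10-base molecular identifiers were collapsed are not given in the sources used here. Dividing each library's deposited signal by its smallest unit gave whole counts (100% of values, tolerance 0.1), and from these the depth. No column of the table was left unused.

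The main test was limma 3.58.1 in R 4.3.3 on log2(signal + 1) with an intensity trend, fitted within each tissue on all 3 groups, for genes reaching a signal of 1 in 4 or more of a tissue's 12 libraries. A joint fit of 180 libraries, without a term for the mouse, gave differences between tissues. The pseudocount of 1 understates changes of low genes. Labels name the mouse of each library but no separate cages or days. Tissues come from the same mice, so numbers pair libraries across tissues. The median correlation of deviations from group means was 0.0157 for the same mouse and −0.00481 for different mice. No such correlation is given for the interferon-stimulated genes alone. By their median level, LPS mouse 6 was lowest of its group in 11 tissues and highest in 2. LPS mouse 7 was highest in 11 and lowest in 2. The correlation therefore does not show that the mouse can be ignored for these genes. Within a tissue, groups share no mouse. Scripts were tested on simulated data.

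The alternatives tried used 0.25 as pseudocount, left out the filter, rescaled libraries by median ratios, fitted the 2 compared groups alone, ran edgeR 4.0.16 quasi-likelihood on recovered counts, summed near-identical pairs, took the mouse as a block, or left out each mouse in turn. Genes are named as the highest and lowest signed changes in each tissue, the largest called differences in each direction, and every call against the majority in a tissue. Isg15, Ifit1, Irf7, Usp18, Stat2 and Ifitm3 were listed for every tissue, of which a subset is printed. The genes and all lists were chosen with earlier results of these data known. 1 gene of the signalling list is not reported here.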

Additional observations from a re-analysis of the deposited data

Results flagged for a closer look

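The difference in LPS change between small intestine and the other tissues was tested as an interaction. It was lower in small intestine than the mean of the other 14 tissues for 30 of the 34 genes, and lower than in colon for 16. The difference between TNFKO LPS and LPS mice was larger in small intestine than the mean of the other 14 tissues for Oasl2, by 0.60 on the log2 scale.

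Of 102 groups of 4 libraries examined, 8 held a library whose gap to the nearest other exceeded Dixon's critical share of the group's range. Chance alone gives this in about 1 in 20 groups. For the median level of the 34 genes, in log2(signal + 1), these were the highest white fat library of TNFKO LPS mice (6.69), the highest spleen library of LPS mice (6.81), the lowest thymus library of PBS mice (4.8) and the lowest brain library of PBS mice (3.64). The spleen library came from mouse 6. For single genes in small intestine these were the highest Ifit2 signal in TNFKO LPS mice (21.4), the lowest Ifi35 (57.1) and the highest Ifi44 (44.9) signal in LPS mice, and the highest Ifit1 signal in PBS mice (401). The Ifi35 and Ifi44 libraries both came from mouse 7.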

How the results depend on the processing

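No test called within a tissue was called in the opposite direction under any alternative run. Of the LPS calls, 10 of 12 lower and 4 of 5 higher in small intestine and 344 of 392 higher in the other 14 tissues were kept in every alternative. Of the calls between TNFKO LPS and LPS mice, 4 of 6 in small intestine and 15 of 29 higher and 13 of 28 lower in the other 14 tissues were kept. The count of lower calls under LPS in the other 14 tissues, 1, was 2 by edgeR and 1 to 2 with 1 mouse left out. That of lower calls in TNFKO LPS mice there, 28, was 17 without a filter, 61 by edgeR and 14 to 94 with 1 mouse left out (94 without mouse 6, 14 without mouse 8), beside 29 higher calls, or 32 by edgeR, so the balance of calls turned with the setting. Without mouse 6 heart had 2 higher and 3 lower, against 3 and 0 with it, and brown fat 2 and 3, against 2 and 0. By edgeR the lower calls were 10 in colon, 10 in kidney and 7 in lung, against 5, 3 and 3; without a filter they were 2 in colon and 1 in lung. The causes were not tested. With the mouse as a replicate block, 30 genes had a lower LPS change in small intestine than in the other 14 tissues and 17 than in colon. With differences within each mouse 32 were lower and 1 was higher, against 0 higher in the main test. The genotype difference that was larger in small intestine for 1 gene was so for 2 with the block, 5 within mice, 4 by edgeR and 0 to 6 with 1 mouse left out. Groups of 4 mice and totals down to 311128 counts limit what could be called.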
